A study of Mus musculus with 6 samples.

Results

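Toll-like receptor and NF-κB signalling was followed through 49 genes, chosen by symbol from a list of pathway genes that runs from the receptors to the inhibitors, out of 49315 gene identifiers in the count table. The 49 genes were grouped by role into 5 sets: 14 receptors and accessory proteins, 4 adaptors, 15 kinases and TRAF proteins, 5 NF-κB subunits, and 11 IκB proteins, inhibitors and feedback genes. Of these, 48 had enough counts to be tested, and Tlr5, the flagellin receptor, had 0 counts in all 6 libraries. The limit that a count of 0 allows, 3 counts over a group of libraries, corresponds to 0.0659 CPM, a count scaled to library size, with DMSO and 0.0588 CPM with SKI-II.

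Toll-like receptors bind microbial lipids, proteins and nucleic acids at the cell surface or inside endosomes. They recruit adaptor proteins, chiefly Myd88 and Ticam1, which switch on IRAK kinases, TRAF ubiquitin ligases and then the IκB kinase complex. That complex marks IκB proteins for breakdown and frees dimers of NF-κB subunits to enter the nucleus, where they turn on inflammatory genes along with several of their own inhibitors, so that the signal shuts itself down. Macrophages carry most of these receptors and are among the cells in which the pathway has been worked out.

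The data are RNA-seq read counts from RAW264.7, a mouse macrophage-like line, of wild-type genotype. The 3 DMSO libraries came from cells given the solvent, and the 3 SKI-II libraries from cells given SKI-II, an inhibitor of sphingosine kinases, at 4 μg/mL. Both groups were collected at 24 h, and neither received a Toll-like receptor ligand or bacteria in this experiment. Nothing in the labels says that the 3 libraries of a group came from separate cultures, so the p-values measure the spread between these libraries only. Libraries held 12495957 to 20050677 counts. Values are normalized counts, which are read counts scaled to a common effective library of 16042438 counts, and fold changes are SKI-II over DMSO on the log2 scale with their standard error (SE). Calls are at an adjusted p below 0.05 (edgeR quasi-likelihood test, Benjamini-Hochberg over 12274 genes), and this test stands behind every adjusted p below. All 9 macrophage markers were tested, Csf1r and Cd68 among them, while no marker of T cells, B cells, fibroblasts or epithelial cells had enough counts to be tested. Among the macrophage markers, Lyz2 (log2 fold change -1.26), Itgam (-0.93) and Adgre1 (-0.92) fell and Fcgr1 (2.17) rose, and the other 5 were not called. Of 4 dendritic cell markers only Zbtb46 was tested, and it fell (-0.84). The part of these marker changes in the results below was not tested. In bulk RNA, a change in every cell and a change in part of the cells cannot be told apart.

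Of the 48 tested genes, 7 rose and 8 fell with SKI-II, and 33 did not pass the test. Those counts are 14.6% and 16.7% of the genes, against 18.4% of all tested genes that rose and 19.7% that fell, so the share of these 48 called in each direction was not above that of all tested genes. With a log2 change past 1, 3 of the 48 rose and 4 fell, while 8.28% of all tested genes rose and 7.44% fell by that much. The 3 SKI-II values lay above all 3 DMSO values for 11 genes, below them for 12, and overlapped for 25. Among all tested genes the values lay apart in the higher direction for 24.8% and in the lower direction for 25.5%. The median log2 fold change of the 48 was -0.05, and that of all tested genes was 0.00. Genes of both directions were called in 3 of the 5 role groups, and the heat map of members by library shows them beside the spread among the DMSO libraries.

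**Figure D1:**
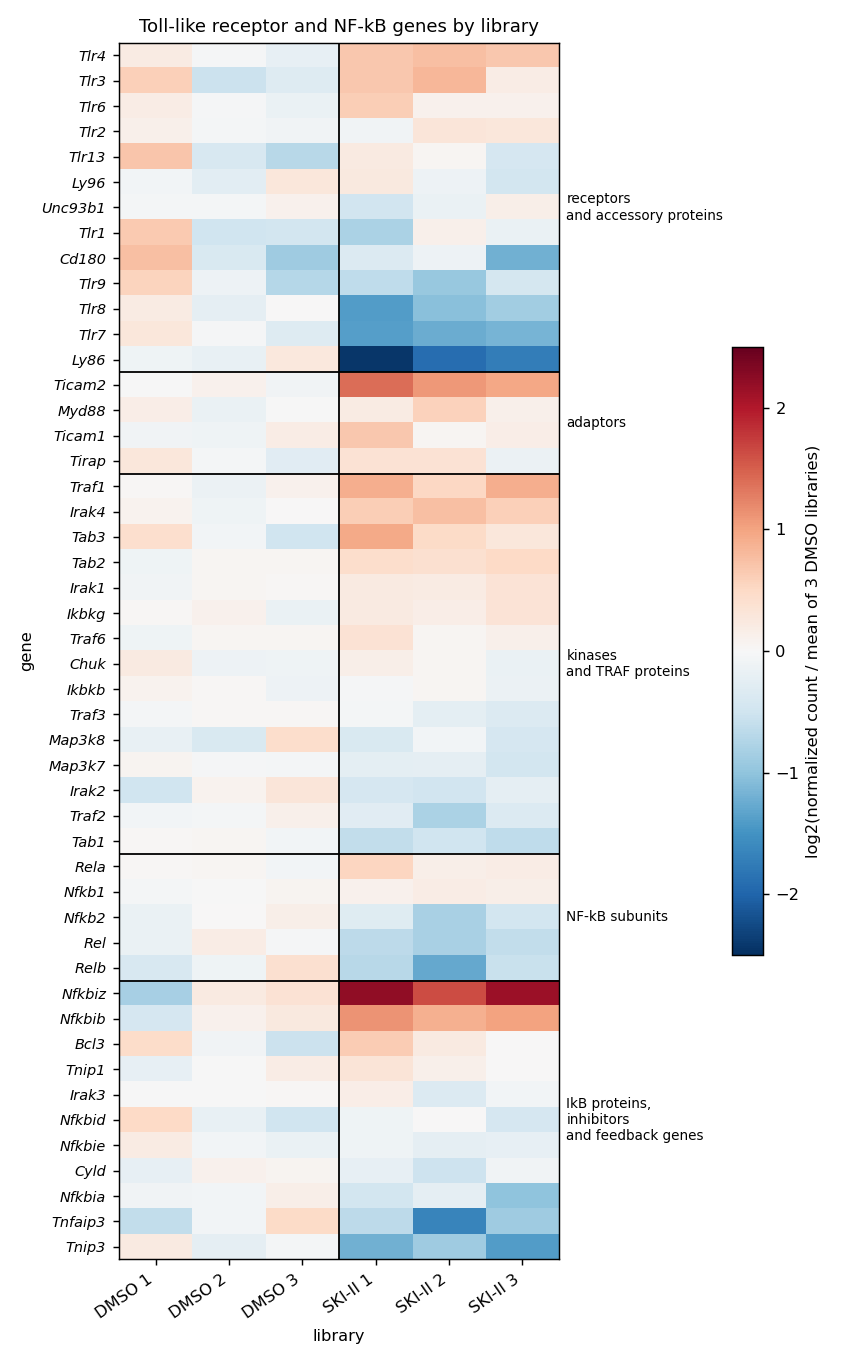
Heat map of the 48 tested genes (rows, grouped by role and ordered by fold change) in the 6 libraries (columns). Color is the log2 ratio of each normalized count to the mean of the 3 DMSO libraries. Nfkbiz, Nfkbib and Ticam2 are red in all 3 SKI-II libraries and Ly86, Tlr7 and Tnip3 blue in all 3. DMSO replicate 1 is the reddest DMSO library for all 9 Toll-like receptors shown and for Cd180.

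Among the 13 tested receptors and accessory proteins, Tlr4 rose (7.69%) and Tlr7 and Ly86 fell (15.4%), and 10 did not pass the test, against 18.4% and 19.7% of all tested genes. Tlr4 (ENSMUSG00000039005, GRCm38 chr4:66827584-66930284, plus strand) encodes the lipopolysaccharide receptor. With DMSO its normalized counts were 855, 728 and 647, and with SKI-II they were 1180, 1253 and 1183, or 743.0 ± 104.9 against 1205 ± 41.1 (mean ± SD, n = 3 each). Every SKI-II library was above every DMSO library, and the SKI-II libraries lay closer together than the DMSO libraries did. The difference was 0.70 on the log2 scale (SE 0.13, edgeR adjusted p = 0.00291), a level 1.62 times that with DMSO.

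Tlr7 (ENSMUSG00000044583, chrX:167304929-167330558, minus strand), an endosomal receptor for single-stranded RNA, moved the other way. Its counts were 1364, 1097 and 900.1 with DMSO and 431, 473 and 503 with SKI-II, or 1120 ± 233 against 469 ± 36.2. The lowest DMSO library was well above the highest SKI-II library. Its log2 fold change was -1.26 (SE 0.16, edgeR adjusted p = 0.000355), and the level with SKI-II was 0.419 times that with DMSO.

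Ly86 (ENSMUSG00000021423, chr13:37345208-37419036, plus strand) had the largest decrease of the 48 tested genes. It encodes the secreted partner of Cd180, a Toll-like receptor homologue that tempers the response to lipopolysaccharide. Its counts were 549.8, 523 and 714 with DMSO and 109.7, 159 and 181 with SKI-II, or 596 ± 103.3 against 150.0 ± 36.5. Groups were far apart in every pair of libraries. The fitted difference was a log2 fold change of -1.98 (SE 0.21, edgeR adjusted p = 0.000105), a level 0.253 times that with DMSO. Cd180 itself had a log2 fold change of -0.49 (SE 0.39, adjusted p = 0.355), with DMSO replicate 1 at 1214 and the other 5 libraries between 314 and 654. Ly96, which encodes the co-receptor that binds lipopolysaccharide together with Tlr4, was at 51.8 to 76.2 with DMSO and 45.6 to 73.9 with SKI-II (log2 fold change -0.09, SE 0.29), and the ranges overlapped.

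The remaining receptors were not called. The receptors for bacterial lipoproteins had log2 fold changes of 0.18 for Tlr2 (SE 0.14), 0.29 for Tlr6 (SE 0.23) and -0.22 for Tlr1 (SE 0.37). Among the endosomal receptors, Tlr3, which senses double-stranded RNA, had 0.58 (SE 0.34), Tlr9, which senses DNA, -0.66 (SE 0.30), and Tlr13, which senses bacterial ribosomal RNA, -0.03 (SE 0.33). Tlr8 had only 10.1 to 13.6 normalized counts with DMSO and 4.48 to 6.52 with SKI-II, so its groups did not overlap, but its log2 fold change of -1.06 (SE 0.45) had an adjusted p of 0.0816 by edgeR. Unc93b1, which escorts the nucleic acid receptors out of the endoplasmic reticulum, was at 3525 to 5416 with SKI-II around a DMSO range of 4733 to 5276 (-0.15, SE 0.16). DMSO replicate 1 was the highest DMSO library for each of the 9 detected Toll-like receptors, the called Tlr4 and Tlr7 included. It was also the highest for Cd180, at 1214 against 552 and 386. Tlr4 and Tlr7 kept their calls without it. Tlr1, Tlr3, Tlr9, Tlr13 and Cd180 had SEs of 0.30 to 0.39. Without DMSO replicate 1, Tlr3 was called, with a log2 fold change of 1.00 (edgeR adjusted p = 0.0305). In the same setting Cd180 (0.11), Tlr1 (0.26) and Tlr13 (0.50) changed sign, and Tlr9 had -0.28, with none of these 4 called. Tlr9 was called without DMSO replicate 3 (-0.92, adjusted p = 0.0171).

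Counted per kilobase of exon, so that genes can be compared, Tlr2 had the highest transcript level of the 9 detected Toll-like receptors in all 6 libraries. It was at 488 to 566 normalized counts per kilobase with DMSO and 489 to 635 with SKI-II, which is 40.5% to 49.7% and 47.0% to 54.7% of the summed level of the Toll-like receptors. The next place changed hands: with DMSO it belonged to Tlr7 (220.5 to 334 per kilobase) above Tlr4 (116 to 154), and with SKI-II to Tlr4 (212 to 226) above Tlr7 (105 to 123). Tlr7 made up 22.5% to 24.6% of the summed level with DMSO and 9.74% to 10.6% with SKI-II, and the mean share of Tlr4 was 11.6% with DMSO and 19.3% with SKI-II. Within a library the ratio of Tlr4 to Tlr7 counts was 0.627 to 0.718 with DMSO and 2.35 to 2.74 with SKI-II. This ratio, like the others below, was formed after the values were seen and is given with no test. The summed level itself overlapped between groups, at 980.1 to 1400 per kilobase with DMSO and 1039 to 1190 with SKI-II. Among the other receptors in the DMSO libraries, the range of Tlr13 (57.8 to 152 per kilobase) overlapped those of Tlr4 and Tlr9 (41.0 to 99.4), and the range of Tlr1 (17.0 to 38.0) overlapped those of Tlr6 and Tlr3. Tlr8 was last at 2.82 to 3.79 per kilobase, apart from all the others.

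**Figure D2:**
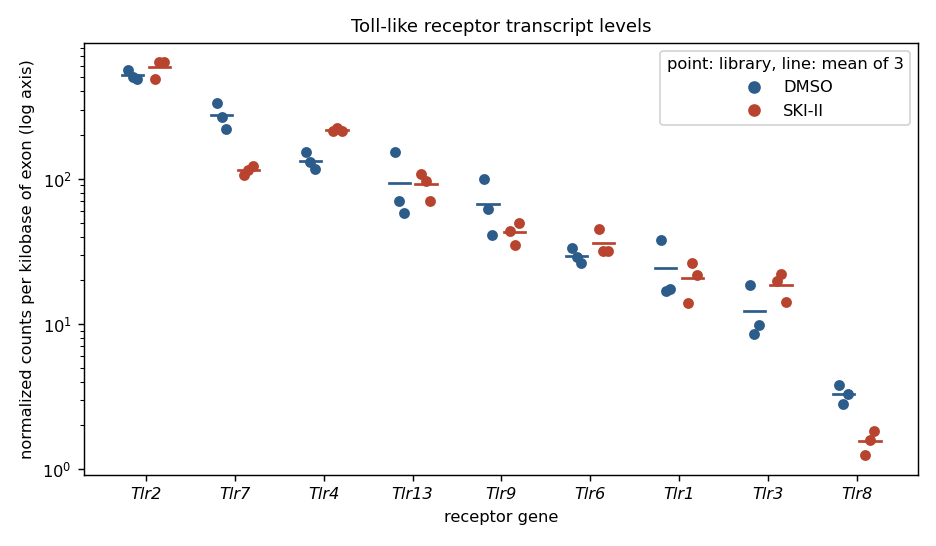
Levels of the 9 detected Toll-like receptor genes, in normalized counts per kilobase of merged exons (log axis), ordered by the DMSO mean. Points are libraries (blue, DMSO; red, SKI-II) and lines are means of 3; Tlr4 and Tlr7 exchange places, and Tlr2 stays on top in both groups.

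Of the 4 adaptor genes only Ticam2 rose (1 of 4, against 18.4% of all tested genes) and 0 fell (against 19.7%). Ticam2 (ENSMUSG00000056130) encodes TRAM, the bridge by which Tlr4 in endosomes reaches Ticam1 and the interferon branch. Its counts were 313, 341 and 297 with DMSO and 829, 674 and 623 with SKI-II, or 317 ± 22.4 against 709 ± 107.3. The groups were well separated, with SKI-II replicate 1 the highest. On the log2 scale the change was 1.16 (SE 0.15, edgeR adjusted p = 0.000355), a level 2.23 times that with DMSO. In the annotation Ticam2 shares 838 exon bases, 14.5% of its exons, with Tmed7 on the same strand. Tmed7 had a log2 fold change of 0.19 (adjusted p = 0.228), and how reads in the shared bases were counted was not tested.

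Tirap, the sorting adaptor that brings Myd88 to Tlr2 and Tlr4, had the smallest difference of the 4. Its counts were 209.8, 167 and 143 with DMSO and 224, 221 and 156 with SKI-II, or 173 ± 34.0 against 200.5 ± 38.2. The groups overlapped and the log2 fold change was 0.21 (SE 0.22, edgeR adjusted p = 0.492). Myd88, the adaptor used by nearly all of the receptors, had 0.32 (SE 0.16, adjusted p = 0.133), and Ticam1, which encodes the adaptor TRIF, had 0.32 (SE 0.18, adjusted p = 0.183). Both had overlapping groups.

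Of the 15 kinases and TRAF proteins, Traf1, Irak4 and Tab2 rose (20%, against 18.4% of all tested genes), Tab1 fell (6.67%, against 19.7%) and 11 did not pass the test. Irak4, the kinase that starts the Myd88 signalling complex, was at 697, 607 and 662 with DMSO and 999, 1099 and 996 with SKI-II. Its groups were apart, and its log2 fold change was 0.65 (SE 0.12, edgeR adjusted p = 0.00242). Of its exons 7.87% overlap Twf1 on the other strand, which was not called. Irak1, which Irak4 phosphorylates, was at 1439 to 1576 with DMSO and 1764 to 1946 with SKI-II, also apart, but its log2 fold change of 0.26 had an adjusted p of 0.0905. Irak2 had -0.36 (SE 0.19, adjusted p = 0.166) with DMSO replicate 1 the lowest library at 770.2 and DMSO replicate 3 the highest at 1349. It was called without DMSO replicate 1 (-0.58, adjusted p = 0.0115).

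Traf1, an NF-κB induced TRAF protein that lacks ligase activity, had the largest increase of this group. Its counts were 127, 112 and 135 with DMSO and 235, 178 and 235 with SKI-II, or 125 ± 11.3 against 216 ± 32.6. All SKI-II libraries were above all DMSO libraries, and the log2 fold change was 0.79 (SE 0.20, edgeR adjusted p = 0.0104). Without DMSO replicate 2 the call was lost (adjusted p = 0.0557). Traf6, the ubiquitin ligase of the Myd88 route, had 0.18 (SE 0.13) and Traf3, which directs signalling to interferon, -0.20 (SE 0.12), both with overlapping groups. Traf2 had -0.46 (SE 0.17) with all SKI-II libraries below all DMSO libraries and an adjusted p of 0.0529 by edgeR, just outside the threshold, and it passed in 4 of the 13 alternative settings.

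Tab1 and Tab2 are partners of the kinase Map3k7, known as TAK1. Tab1, which activates the kinase, was at 655, 661 and 611 with DMSO and 418, 456 and 412 with SKI-II, or 642 ± 27.2 against 429 ± 23.7. Tab2, which tethers the kinase to ubiquitin chains, was at 1926, 2145 and 2139 with DMSO and 2823, 2750 and 2909 with SKI-II. For both genes the groups stood well apart, in opposite directions. The log2 fold change of Tab1 was -0.58 (SE 0.13, edgeR adjusted p = 0.00552) and that of Tab2 was 0.45 (SE 0.11, adjusted p = 0.0094). Tab3, a relative of Tab2, had 0.59 (SE 0.26, adjusted p = 0.0998), and Map3k7 itself -0.31 (SE 0.12, adjusted p = 0.069). Tab3 passed in 3 of the 13 alternative settings and Map3k7 in 1, with the replicate block among them for both. None of the subunits of the IκB kinase complex passed the test, with log2 fold changes of 0.02 for Chuk (SE 0.15), -0.04 for Ikbkb (SE 0.12) and 0.24 for Ikbkg (SE 0.12, adjusted p = 0.147). Ikbkg shares 418 exon bases, 5.15% of its exons, with G6pdx on the other strand, which rose (log2 fold change 0.93), and the part of those reads was not tested. Map3k8, the kinase that links the pathway to ERK, had -0.29 (SE 0.28).

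**Figure D3:**
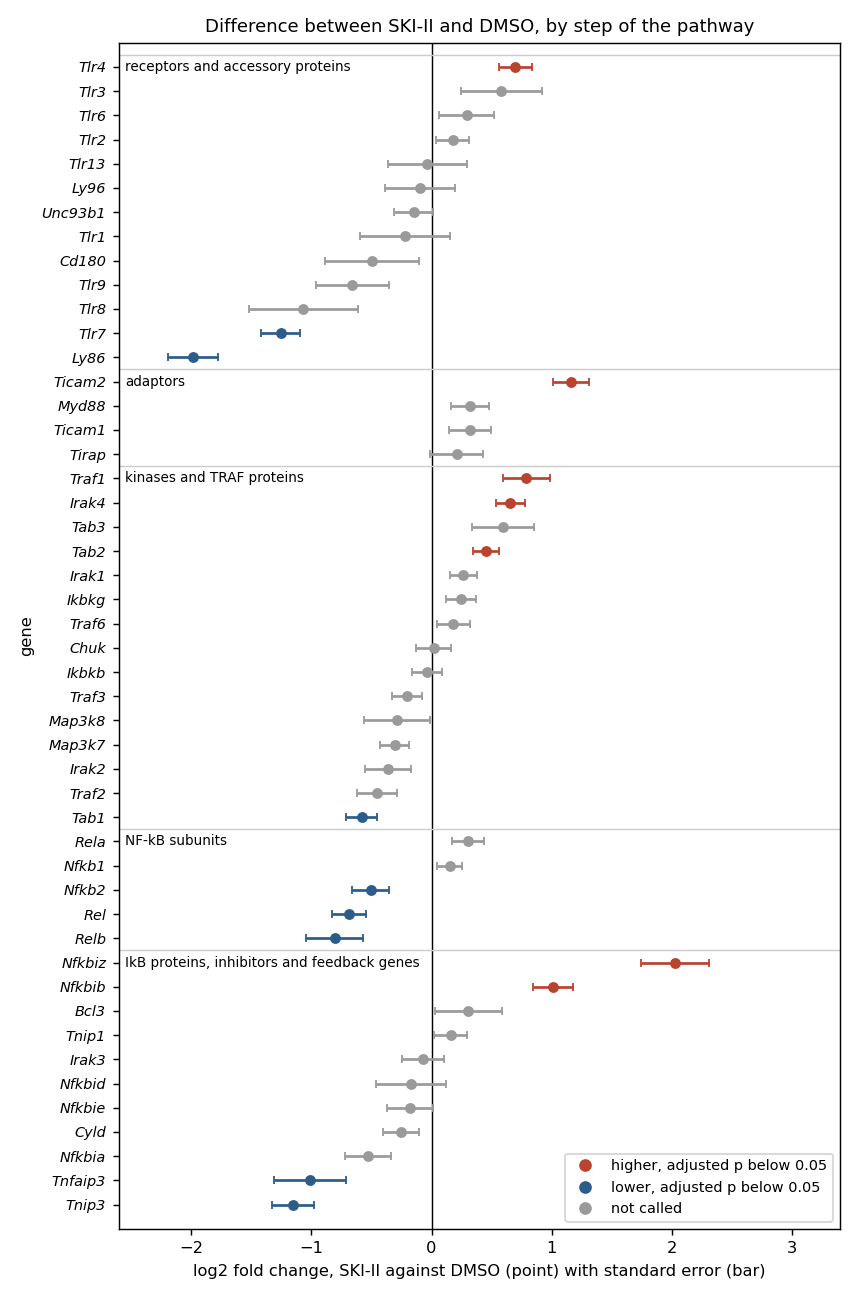
Log2 fold change of each tested gene, SKI-II against DMSO (points), with its standard error (bars), grouped by role. Red and blue mark the 7 genes that rose and the 8 that fell by the edgeR test, and gray the 33 that were not called; called genes of both directions appear among receptors, kinases and inhibitors, of the adaptors 1 rose, and of the NF-κB subunits 3 fell.

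Among the 5 NF-κB subunit genes, 3 fell (Relb, Rel and Nfkb2) and 0 rose, against 19.7% and 18.4% of all tested genes. Of these 3 calls, those of Relb and Nfkb2 were each lost in 3 of the 6 settings that left out 1 library. The smallest log2 fold change belonged to Relb (ENSMUSG00000002983, chr7:19606217-19629438, minus strand), the subunit of the slower, non-canonical arm, whose usual partner comes from Nfkb2. Its counts were 475, 580.0 and 826 with DMSO and 389, 258 and 428 with SKI-II, or 627 ± 180.1 against 358 ± 89.5. The groups did not overlap, but DMSO replicate 1 was close to SKI-II replicate 3. The log2 fold change was -0.81 (SE 0.24, edgeR adjusted p = 0.0241), and the adjusted p was 0.0743, 0.0525 and 0.0881 without DMSO replicate 3, SKI-II replicate 1 and SKI-II replicate 2.

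Nfkb2 was at 1513, 1718 and 1892 with DMSO and 1390, 980.0 and 1242 with SKI-II. The nearest libraries of the groups, DMSO replicate 1 and SKI-II replicate 1, were again close. Its log2 fold change was -0.50 (SE 0.15, edgeR adjusted p = 0.0262), and its adjusted p was 0.0793, 0.0688 and 0.104 without DMSO replicate 2, DMSO replicate 3 and SKI-II replicate 2. Nfkb2 shares 531 exon bases, 11.6% of its exons, with AC114539.1 on the other strand. Rel, the subunit c-Rel of lymphoid and myeloid cells, was at 725, 924 and 799 with DMSO and 517, 468 and 534 with SKI-II, or 816 ± 100.6 against 506 ± 34.7. Its groups were clearly apart, its log2 fold change was -0.69 (SE 0.14, edgeR adjusted p = 0.00366), and its call was kept in each of the 13 alternative settings.

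Rela, which encodes the main activating subunit of the canonical arm, had the largest log2 fold change of the 5. Its counts were 1314, 1339 and 1236 with DMSO and 1892, 1443 and 1470 with SKI-II, or 1296 ± 54.0 against 1602 ± 252. All SKI-II libraries were above all DMSO libraries, with replicate 1 far above the other 2 SKI-II libraries, and the difference did not pass the test (0.30, SE 0.14, edgeR adjusted p = 0.104). Nfkb1, which encodes the usual partner of Rela, also had groups apart, at 1858 to 2008 with DMSO and 2064 to 2196 with SKI-II, and did not pass it either (0.15, SE 0.11, adjusted p = 0.297). Within a library, the ratio of Rela to Rel counts was 1.45 to 1.81 with DMSO and 2.75 to 3.66 with SKI-II, and the ratio of Rela to Relb counts 1.5 to 2.77 and 3.43 to 5.6. Per kilobase of merged exons Rela held 30.9% to 37.8% of the summed subunit level with DMSO and 43.1% to 48.9% with SKI-II. Nfkb2 held 29.2% to 31.7% and 21.5% to 24.4%. The rank of Nfkb1 depended on the length used, since its share with DMSO was 12.7% to 13.6% over merged exons and 27.0% to 28.6% over the longest transcript.

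**Figure D4:**
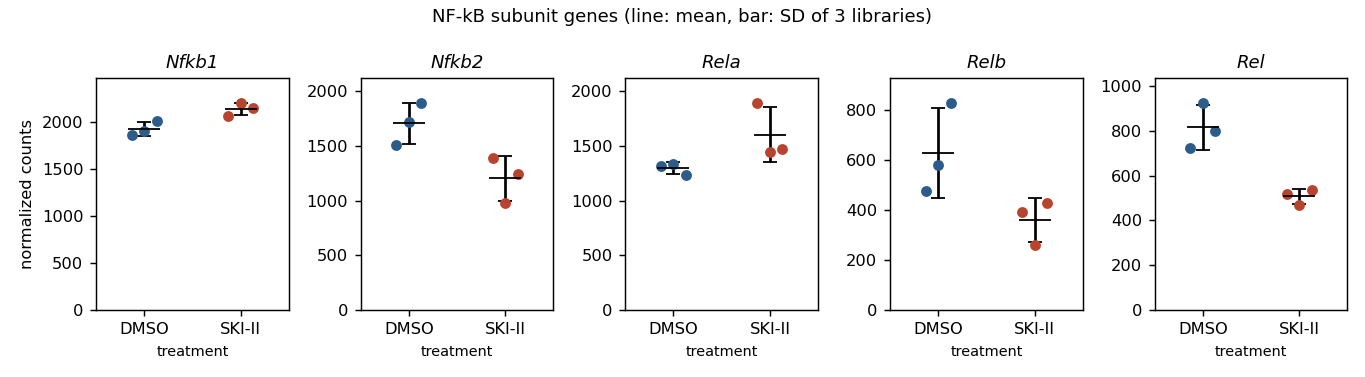
Normalized counts of the 5 NF-κB subunit genes in each library (points), with the mean (line) and SD (bar) of 3 libraries, on axes from 0. SKI-II libraries lie above the DMSO libraries for Nfkb1 and Rela, which were not called, and below them for Nfkb2, Relb and Rel, which were.

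The 11 IκB proteins, inhibitors and feedback genes included the largest increase, with 2 genes that rose (18.2%), 2 that fell (18.2%) and 7 not called, shares near the 18.4% and 19.7% of all tested genes. Nfkbiz (ENSMUSG00000035356, chr16:55811375-55838899, minus strand) encodes IκBζ, a nuclear IκB protein that, unlike the cytoplasmic ones, helps NF-κB to turn on secondary response genes. Its counts were 81.6, 169 and 186 with DMSO and 680.3, 452 and 645 with SKI-II, or 146 ± 56.1 against 593 ± 123. The lowest SKI-II library was above 2 times the highest DMSO library. Its log2 fold change was 2.03 (SE 0.28, edgeR adjusted p = 0.000555), a level 4.08 times that with DMSO.

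Nfkbib (ENSMUSG00000030595, chr7:28758251-28767512, minus strand) encodes the cytoplasmic inhibitor IκBβ. Its counts were 782, 1121 and 1231 with DMSO and 2288, 1925 and 2090 with SKI-II, or 1044 ± 234 against 2101 ± 182. The groups were widely separated. The fitted difference was a log2 fold change of 1.01 (SE 0.17, edgeR adjusted p = 0.00144), a level 2.01 times that with DMSO. Nfkbib shares 314 exon bases with Ccer2 and 42 with Sirt2, both on the other strand. Ccer2 had 0 counts, and Sirt2 rose by less (log2 fold change 0.47).

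Nfkbia encodes IκBα, the fast-acting cytoplasmic inhibitor that NF-κB itself induces. Its counts were 658, 667 and 775 with DMSO and 508, 602 and 347 with SKI-II, or 700.0 ± 65.4 against 486 ± 129. All SKI-II libraries were below all DMSO libraries, and SKI-II replicate 3 was the lowest. On the log2 scale the change was -0.53 (SE 0.19, edgeR adjusted p = 0.0558), just outside the threshold, and it passed in 5 of the 13 alternative settings. Within a library the ratio of Nfkbib to Nfkbia counts was 1.19 to 1.68 with DMSO and 3.20 to 6.02 with SKI-II. Per kilobase, Nfkbib made up 43.3% to 52.5% of the 3 cytoplasmic IκB transcripts with DMSO and 67.8% to 78.5% with SKI-II. Nfkbia had a mean share of 45.0% with DMSO, about level with Nfkbib, and 22.8% with SKI-II. Nfkbie, the last of the 3, had a log2 fold change of -0.18 (SE 0.19).

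Tnfaip3 and Tnip3 belong to the ubiquitin-editing brake on the pathway. Tnip3 (ENSMUSG00000044162, chr6:65525313-65634040, plus strand), which encodes a partner of the Tnfaip3 protein, was at 849.9, 625 and 706 with DMSO and 314, 392 and 275 with SKI-II, or 727 ± 114 against 327 ± 59.5. The groups were far apart, and the log2 fold change was -1.15 (SE 0.18, edgeR adjusted p = 0.000842), a level 0.450 times that with DMSO. Tnfaip3 (ENSMUSG00000019850, chr10:19000910-19015657, minus strand), the deubiquitinase that ends receptor signalling, was at 348, 508 and 749 with DMSO and 339, 169.8 and 288 with SKI-II, or 535 ± 202 against 266 ± 86.8. Its lowest DMSO library, replicate 1, was barely above its highest SKI-II library, also replicate 1. The log2 fold change was -1.01 (SE 0.30, edgeR adjusted p = 0.0256), and the call was lost on leaving out replicate 2 or 3 of DMSO or replicate 2 of SKI-II (adjusted p = 0.0557, 0.0795 and 0.0868).

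The ratio of Nfkbiz to Tnfaip3 counts was 0.235 to 0.333 within the DMSO libraries and 2.01 to 2.66 within the SKI-II libraries. Between groups the called changes of these NF-κB-inducible genes had opposite signs, that of Tnfaip3 lost in 3 settings that left out 1 library. Within each group the libraries ranked in the same order for both genes. The other members of the set had smaller differences, none of which passed the test. The nuclear IκB proteins other than Nfkbiz had log2 fold changes of 0.31 for Bcl3 (SE 0.28) and -0.17 for Nfkbid (SE 0.29). Tnip1, a Tnfaip3 partner with a higher level per kilobase than Tnip3 in all 6 libraries, had a log2 fold change of 0.16 (SE 0.14), Cyld, another deubiquitinase, -0.26 (SE 0.15), and Irak3, the decoy kinase that restrains Irak1 and Irak4, -0.07 (SE 0.18).

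**Figure D5:**
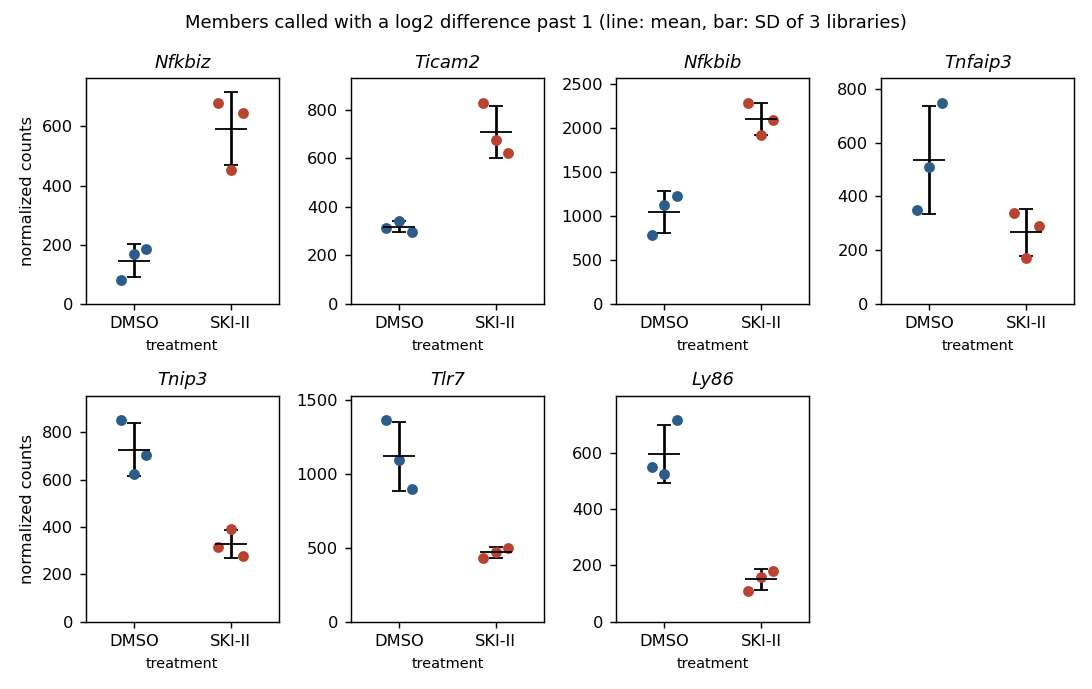
Normalized counts of the 7 genes called with a log2 difference past 1, in each library (points) with the mean (line) and SD (bar) of 3 libraries, on axes from 0. Nfkbiz, Ticam2 and Nfkbib are higher and Tnip3, Tlr7 and Ly86 lower with clear gaps between groups, while for Tnfaip3 the lowest DMSO library (348) and the highest SKI-II library (339) nearly meet.

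Because many inhibitors of the pathway are induced by NF-κB, the promoters were searched for the κB consensus, the DNA motif that the subunits bind, on both strands, with overlapping matches merged. RefSeq windows of 300 bases (250 before to 50 after a start, GRCm38.p6) were found for 38 of the 49 genes, and 14 of these 38 (36.8%) held a match, against 5.14% of 27025 genes with a window. Since the list holds such inhibitors, a share above that of all genes was largely built in, and it does not bear on SKI-II. Matches were in 8 of 10 inhibitor and feedback genes, 2 of 3 subunit genes, 2 of 12 kinases and TRAF proteins, 2 of 10 receptors and accessory proteins, and 0 of 3 adaptors. A window with 2 or more matches occurred in 4 of the 38 genes and in 0.196% of all genes. By direction, 4 of 5 genes that fell and had a window held a match (Tnfaip3, Tnip3, Rel and Nfkb2), as did 10 of 28 that were not called, Nfkbia among them, and 0 of 4 that rose. The 4 that rose were Nfkbib and the kinase or TRAF genes Irak4, Traf1 and Tab2, while Nfkbiz had no window. The matched genes that fell were all inhibitor, feedback or subunit genes, so direction was not separated from role. Of the inhibitor and feedback genes that were not called, Bcl3, Cyld, Nfkbid, Nfkbie and Tnip1 also held a match. The calls of Tnfaip3 and Nfkb2 were both lost without DMSO replicate 2. A match says only that the letters are present, and its use in these cells was not tested.

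The sequences upstream of Nfkbia, Tnip3 and Rel are printed 5′ to 3′ on the gene's strand, up to the start or the nearest annotated exon, to show where the motif lies in the genes that fell and in the classic inhibitor beside them. Capitals mark the match, whose first base is 29 bases before the start in Nfkbia (chr12:55492648-55492897, minus strand), 54 in Tnip3 (chr6:65590148-65590397, plus strand, a RefSeq start inside the longer GENCODE gene) and 92 in Rel (chr11:23770971-23771219, minus strand).
Nfkbia: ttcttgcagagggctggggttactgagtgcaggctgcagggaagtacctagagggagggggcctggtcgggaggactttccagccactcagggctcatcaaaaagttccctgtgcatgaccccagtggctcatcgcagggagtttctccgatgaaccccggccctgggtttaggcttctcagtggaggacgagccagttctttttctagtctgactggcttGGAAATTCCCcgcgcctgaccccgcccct
Tnip3: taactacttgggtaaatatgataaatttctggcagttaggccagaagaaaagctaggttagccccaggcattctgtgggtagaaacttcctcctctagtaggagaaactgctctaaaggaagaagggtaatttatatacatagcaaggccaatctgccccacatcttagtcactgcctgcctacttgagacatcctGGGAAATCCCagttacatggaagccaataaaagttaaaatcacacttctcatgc
Rel: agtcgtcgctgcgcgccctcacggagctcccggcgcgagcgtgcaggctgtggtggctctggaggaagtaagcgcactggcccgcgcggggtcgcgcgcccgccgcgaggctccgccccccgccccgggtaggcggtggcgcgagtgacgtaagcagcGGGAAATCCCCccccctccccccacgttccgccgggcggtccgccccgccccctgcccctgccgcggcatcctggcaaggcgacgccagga

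For Tnfaip3 and Nfkb2, whose windows overlap annotated exons, 30 bases around the match are given. Tnfaip3 has 2 windows, of which 1 holds no match and the other holds 2 matches, 125 bases (chr10:19015516-19015545) and 12 bases (chr10:19015403-19015432) before the start on the minus strand, while Nfkb2 has windows at 3 starts, all with a match. The Nfkb2 match printed lies 39 bases before the start of the first of these windows (chr19:46304688-46304717, plus strand), which holds another match 11 bases before the start.
Tnfaip3, upstream match: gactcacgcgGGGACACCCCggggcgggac
Tnfaip3, match nearest the start: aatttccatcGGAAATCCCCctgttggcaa
Nfkb2: ggatcgtcacGGGAATTCCCCccctcgggg

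Another 50 genes of the pathway, none of them described above, were counted the same way. Of the 47 that were tested, 15 rose (31.9%) and 6 fell (12.8%), against 18.4% and 19.7% of all tested genes, and the median log2 fold change was 0.11. The largest increases were in Cd14, Rnf11 and Nlrc3. Cd14, which hands lipopolysaccharide to Tlr4 and Ly96, was at 9556, 6554 and 6895 with DMSO and 22570, 20400 and 18300 with SKI-II (log2 fold change 1.41, SE 0.17, edgeR adjusted p = 0.000273). Rnf11, a partner of Tnfaip3, had 1.38 (SE 0.16), and Nlrc3, an inhibitor of Traf6 signalling, had 1.27 (SE 0.21), and both groups of values lay apart. The largest decreases were in Cnpy3, Birc3 and Ptpn6. Cnpy3, a chaperone that Toll-like receptors need to fold, was at 1497, 1487 and 1769 with DMSO and 535, 626 and 554 with SKI-II (-1.47, SE 0.13, edgeR adjusted p = 3.77e-05). Birc3, a ubiquitin ligase that NF-κB induces, had -1.14 (SE 0.14), and Ptpn6, the phosphatase SHP-1, had -1.08 (SE 0.20). By role, 4 of 6 tested genes of ligand handling and receptor trafficking rose and 2 fell, and 6 of 19 negative regulators rose (31.6%) and 1 fell (5.26%). Of 22 ubiquitin and kinase genes 5 rose (22.7%) and 3 fell (13.6%), shares near the 18.4% and 19.7% of all tested genes.

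Among 32 genes known to be turned on by NF-κB, 23 were tested, 7 of which rose and 7 fell (30.4% each, against 18.4% and 19.7% of all tested genes), with a median log2 fold change of -0.14. Cxcl2, a chemokine for neutrophils, was at 24.3, 34.1 and 33.7 with DMSO and 1116, 1143 and 988 with SKI-II (5.14, SE 0.18, edgeR adjusted p = 6.02e-07). Ptgs2, the inducible cyclooxygenase, was at 201, 334 and 410 and then 7016, 7451 and 7167 (4.52, SE 0.21). Lcn2, a siderophore-binding protein, had 2 counts over the 3 DMSO libraries and 1951 over the 3 SKI-II libraries. In the other direction Cxcl10, an interferon-induced chemokine, fell, with 133 counts summed over 3 libraries with DMSO and 6 with SKI-II (edgeR adjusted p = 0.000661). Acod1, which makes itaconate, was at 55.6 to 97.1 with DMSO and 5.59 to 7.63 with SKI-II (-3.45, SE 0.38), and Gadd45b, an early stress gene, had -1.99 (SE 0.36). Called targets of the pathway thus went both ways. The members were also called both ways, but at 14.6% and 16.7%, not above the 18.4% and 19.7% of all tested genes. Of the targets that fell, the number without SKI-II replicate 1 was 4 in place of 7, as it was when 10 counts were required in every library.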

How the data were processed

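Total RNA from RAW264.7 cells was enriched for poly(A) RNA and sequenced by the authors' provider. Per the submitters' processing notes, the tools were Trimmomatic 0.36, STAR 2.5.2b, Subread 1.5.2 with featureCounts, and DESeq2. The deposited values are raw read counts per gene made by the authors, with 0 columns outside the 6 libraries. Which genome build, annotation and strand setting were used is not given in the sources used here. Counts of genes that overlap others on either strand are uncertain.

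Identifiers were named with GENCODE M21 on GRCm38 (48970 of 49315 matched). Genes were filtered with filterByExpr (minimum count 10), scaled by TMM and tested in edgeR 4.0.16 (R 4.3.3) by quasi-likelihood, with treatment as the only term and Benjamini-Hochberg adjustment over 12274 genes, which held at least 99.87% of each library's counts. Every library had 12495957 counts or more, and the common coefficient of variation between libraries was 17.5%. The script was tested on simulated data. Alternatives were DESeq2 1.42.0, limma-voom (limma 3.58.1), other scalings and filters, a replicate block and leaving out each library. No 2 libraries of a group agreed within sampling noise (chi-square per degree of freedom 15.4 to 58.1).

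The members and the lists were chosen with earlier results of these data known. All members are named by role, with full values for those called with an absolute log2 fold change above 1 and for the largest and smallest fold change of each role; values of other members are given in part. From the other lists, up to 3 called genes per direction with at least 20 mean normalized counts are named. Promoter windows were from RefSeq. Figures were drawn with matplotlib.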

Additional observations from a re-analysis of the deposited data

How the results depend on the processing

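Of the 15 called members, 11 kept their call in all 13 alternative settings, no called member changed sign (8 uncalled members did in some setting), and Traf1, Relb, Tnfaip3 and Nfkb2 lost it only when a library was left out. Of the 33 uncalled members, 8 were called in at least 1 setting (Traf2, Tab3, Map3k7, Irak2, Tlr3, Tlr9, Cd180 and Nfkbia). Of the NF-κB target genes, 7 fell as reported, 4 when at least 10 counts were required in every library, and 4 to 8 when 1 library was left out. Tlr8 had no value under that count requirement. Whether equal replicate numbers mark pairs was not settled. Correlations of same-numbered deviations were 0.25, 0.01 and 0.46. DMSO replicate 3 correlated best with SKI-II replicate 3, but DMSO replicate 1 correlated best with SKI-II replicate 2 (0.30). With the replicate number as a block, 8 members rose and 11 fell, with 2765 and 2819 of all tested genes. Without it, 7 members rose and 8 fell, with 2255 and 2413 of all tested genes. With 3 libraries a group, SEs reached 0.45 on the log2 scale for Tlr8, which had low counts. Even its log2 fold change of -1.06 was not called. Large SEs were not confined to low counts, since Cd180 had 0.39.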
